A study of Mus musculus with 8 samples.

Results

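The C/EBP transcription factors (CCAAT/enhancer binding proteins) were followed in macrophages sorted from mouse breast tumours. The family was taken as the 5 genes Cebpa, Cebpb, Cebpd, Cebpe and Cebpg, and every array probe whose RefSeq accession maps to one of them was used. This gave 7 probes for 4 genes among 41174 probes on the array: 2 for Cebpa, 1 for Cebpb, 1 for Cebpd and 3 for Cebpg. No probe was matched to Cebpe, which is not analysed here. The tumours grew for about 21 days in C57BL/6 hosts after orthotopic implantation of PyMT breast cancer cells, which are driven by the polyoma middle T oncogene. The 4 KO samples came from hosts without ATF3, a stress-induced transcription factor, and the 4 WT samples from wild type hosts, with 1 array per sample. Per the labels the knockout is a property of the host, and the genotype of the implanted cells, the age and sex of the mice and any pooling of animals are not given in the sources used here. Cells positive for F4/80 (encoded by Adgre1) and for CD45 (encoded by Ptprc) were sorted, so the knockout was measured in sorted host leukocytes and in whatever other RNA the sort let through.

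C/EBP proteins are basic leucine zipper factors, which bind DNA as dimers with each other or with relatives such as the ATF proteins. C/EBP alpha commits blood progenitors to the monocyte and granulocyte lineages, C/EBP beta serves activation genes of mature macrophages, and C/EBP delta amplifies acute inflammatory responses. C/EBP epsilon drives late granulocyte maturation, and C/EBP gamma lacks an activation domain of its own and works as a partner, of ATF4 among others. Outside the blood, C/EBP alpha, beta and delta act in fat cells, and C/EBP beta also acts in mammary epithelium, so tumour and fat pad cells can carry these transcripts too.

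The promoters of Cebpa, Cebpb and Cebpg are shown, as the promoter sequences used here held none for Cebpd or Cebpe. Each is a RefSeq sequence from 250 bases before to 50 after the annotated start (build GRCm38.p6). Capitals mark in Cebpa the core TTGCG of the C/EBP motif, in Cebpb the core TGACG of the cyclic AMP response element that CREB and ATF proteins bind, and in Cebpg the CCAAT box, each on either strand. The Cebpa promoter lies at chr7:35119043-35119342 on the + strand, that of Cebpb at chr2:167688665-167688964 on the + strand and that of Cebpg at chr7:35056517-35056816 on the - strand.
Cebpa: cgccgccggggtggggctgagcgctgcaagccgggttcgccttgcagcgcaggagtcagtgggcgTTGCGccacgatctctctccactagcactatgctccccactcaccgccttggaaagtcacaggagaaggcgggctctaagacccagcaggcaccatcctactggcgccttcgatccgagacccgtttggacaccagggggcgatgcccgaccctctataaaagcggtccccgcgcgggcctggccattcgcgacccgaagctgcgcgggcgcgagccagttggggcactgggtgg
Cebpb: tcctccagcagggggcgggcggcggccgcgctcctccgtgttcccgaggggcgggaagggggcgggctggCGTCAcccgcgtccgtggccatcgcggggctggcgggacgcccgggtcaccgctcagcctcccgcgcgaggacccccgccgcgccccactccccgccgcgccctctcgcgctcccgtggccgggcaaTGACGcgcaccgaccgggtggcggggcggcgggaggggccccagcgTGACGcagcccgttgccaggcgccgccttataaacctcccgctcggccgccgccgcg
Cebpg: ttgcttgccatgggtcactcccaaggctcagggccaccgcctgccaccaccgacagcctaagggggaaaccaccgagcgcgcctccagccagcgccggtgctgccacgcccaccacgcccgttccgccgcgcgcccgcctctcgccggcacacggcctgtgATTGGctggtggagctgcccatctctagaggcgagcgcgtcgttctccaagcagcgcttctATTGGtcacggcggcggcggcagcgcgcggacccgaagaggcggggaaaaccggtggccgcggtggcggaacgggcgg
The Cebpb promoter held 3 matches to TGACG, of which 1 reads CGTCA on the printed strand. At least 1 match was present in 20.8% of 32851 RefSeq promoters of the same length, and 3 or more in 1.03%. Those promoters were of any base composition, while G and C made up 80.7% of the Cebpb window. Neither Cebpa nor Cebpg had a match in this window. Cebpa held 1 match to TTGCG, a core found in 17.4% of the promoters. Cebpg held 2 matches to CCAAT, which is found at least once in 37.4% and 2 or more times in 11.7%. The full palindrome TGACGTCA and the longer C/EBP pattern TTGCNNAA, with N for any base, were not in any of the 3 windows. A match describes letters only, and binding was not measured in this series.

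Values are given on a scaled log2 scale, the log2 of a probe's processed signal minus that of the array's 75th percentile. A value of 0 is as bright as that percentile, and levels of different probes are not comparable. All 7 probes were well above background on all 8 arrays. The percentile lay between 638 and 926 intensity units in KO samples and between 619 and 788 in WT samples. None of the 7 spots was saturated, and precision is set by having 4 arrays a group. The sort gene Adgre1 averaged 4.07 ± 0.54 in KO samples and 4.14 ± 0.60 in WT samples, and Ptprc averaged 4.42 ± 0.55 in KO samples and 4.52 ± 0.54 in WT samples (SD, n = 4 each). The 11 macrophage markers with a tested probe were all well above background on all 8 arrays, while Cd68 had no matched probe. The probe for the deleted gene, Atf3, read 5.05 ± 0.31 in KO samples and 4.80 ± 0.21 in WT samples (SD, n = 4 each). The sources used here do not place that probe against the deleted part, so it cannot check the labels. Its unscaled signals were 23140 to 29165 units in KO samples and 17982 to 20961 in WT samples. A direction given here is thus one between libraries by their labelled genotype. Whether each sample is a mouse of its own is not stated, and the p-values cover the spread of these samples, which may be technical.

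The question put to the arrays was whether C/EBP transcripts differ in macrophages of hosts without ATF3. None of the 4 C/EBP genes passed the test. Of 20851 genes fitted with limma, 0% were called at an adjusted p under 0.05, and the groups did not overlap for 2.14%. At an unadjusted limma p under 0.05 there were 3.36% of the genes, and of the C/EBP genes 0 of 4. By the brightest probe of each gene, the 95% interval of the difference lay within 2-fold either way for all 4 C/EBP genes, as it did for 51.5% of the genes. That of the dimmest Cebpg probe, A_51_P521216, was -1.03 to -0.12 and so passed 2-fold on the lower side. With normexp on the median signal the interval of Cebpb was wider, -1.47 to 0.57, and so passed 2-fold on the lower side. By the brightest probes the widest difference among the 4 was that of Cebpd, at 0.21. It lay below the SD of 0.31 in WT samples and above that of 0.16 in KO samples.

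**Figure D1:**
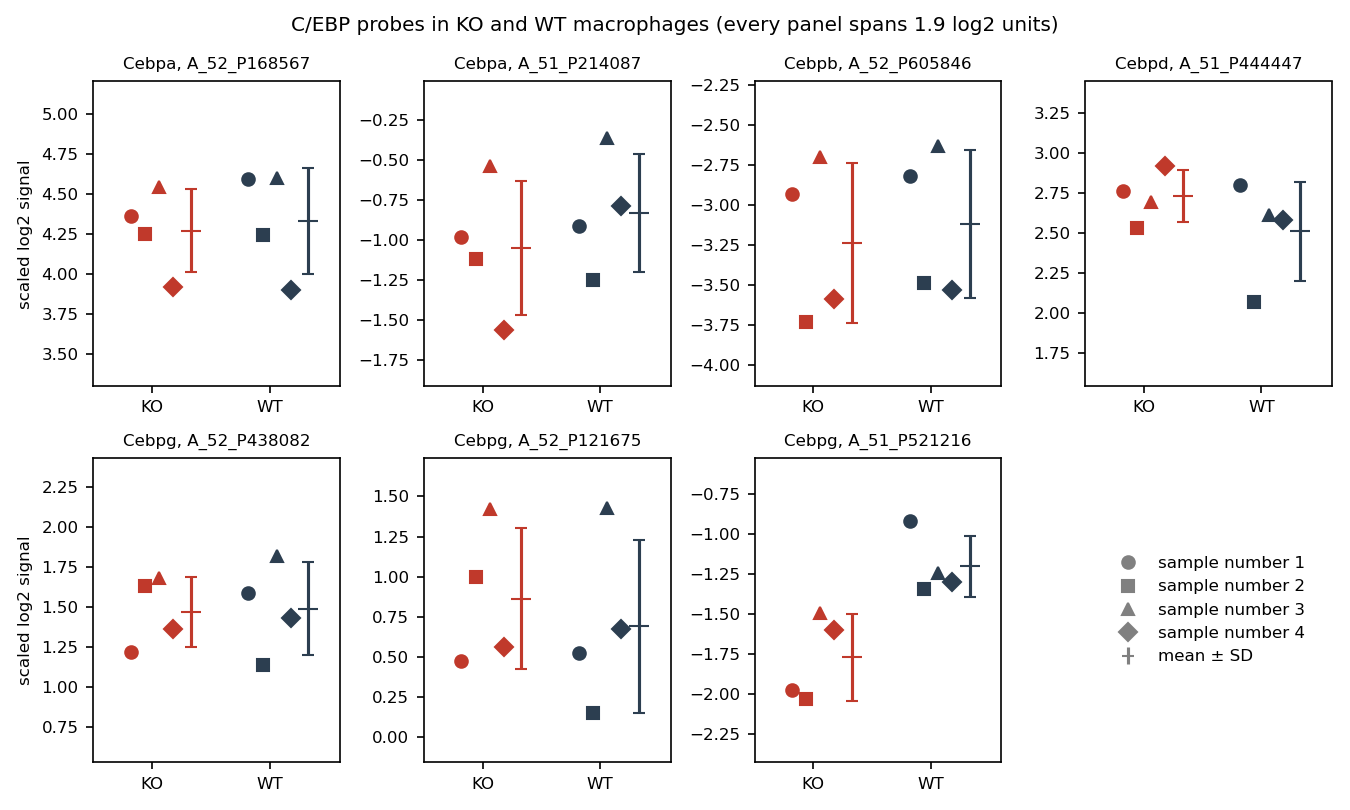
Scaled log2 signal of each of the 7 C/EBP probes in the KO samples (red) and WT samples (dark), 1 panel per probe. Symbols give the sample number and bars the mean ± SD (n = 4). The groups overlap for every probe except Cebpg A_51_P521216, where KO samples read -2.03 to -1.49 and WT samples -1.34 to -0.92.

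Cebpa, the myeloid lineage factor, was bright. Its probe A_52_P168567 measured 4.36, 4.25, 4.54 and 3.92 in KO samples 1 to 4, against 4.59, 4.24, 4.60 and 3.90 in WT samples 1 to 4. The groups overlapped throughout, with sample 3 highest and sample 4 lowest in each genotype. The means were 4.27 ± 0.26 in KO samples and 4.33 ± 0.33 in WT samples (SD, n = 4 each). The log2 difference of -0.06 had a 95% interval of -0.59 to 0.47, which excludes a 2-fold change either way (limma adjusted p = 0.9999, two-sided exact permutation p = 0.771). A dimmer second probe, A_51_P214087, measured -0.98, -1.12, -0.54 and -1.56 in KO samples and -0.91, -1.25, -0.36 and -0.79 in WT samples. It too was highest in sample 3 of each genotype, and its difference was -0.22 (95% interval -0.87 to 0.42, limma adjusted p = 0.9999). For the pair numbered 4 the probes disagreed: KO minus WT was 0.02 by the bright probe and -0.77 by the dim one.

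Cebpb, the activation factor of mature macrophages, was read by a single dim probe. Its median spot signal was 3.1 to 6.2 times the local background in KO samples and 3.0 to 4.9 times in WT samples. The probe measured -2.93, -3.73, -2.70 and -3.59 in KO samples 1 to 4, and -2.82, -3.49, -2.63 and -3.53 in WT samples 1 to 4. Samples 1 and 3 were high and samples 2 and 4 low in both genotypes. The means were -3.24 ± 0.50 in KO samples and -3.12 ± 0.46 in WT samples (SD, n = 4 each), a difference of -0.12 with a 95% interval of -0.87 to 0.63 (limma adjusted p = 0.9999, exact permutation p = 0.6). KO was the lower sample in all 4 same-numbered pairs, by -0.11, -0.23, -0.07 and -0.06, steps far smaller than the spread within a genotype. With the sample number as a block the interval narrowed to -0.42 to 0.18, and the limma adjusted p over all probes was 0.841.

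Cebpd, the amplifier of inflammatory responses, was the only one of the 4 genes with a mean above that of WT samples. It measured 2.76, 2.53, 2.69 and 2.92 in KO samples 1 to 4, against 2.80, 2.07, 2.61 and 2.58 in WT samples 1 to 4. WT sample 2 lay lowest and KO sample 4 highest, and the other 6 samples lay between 2.53 and 2.80. The means were 2.73 ± 0.16 in KO samples and 2.51 ± 0.31 in WT samples (SD, n = 4 each). The difference of 0.21, or 1.16-fold, did not pass (95% interval -0.26 to 0.68, limma adjusted p = 0.9999, exact permutation p = 0.314). Without WT sample 2 it was 0.07. Within slide 1 it was 0.21 and within slide 2 it was 0.22.

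Cebpg, the partner of ATF4, was read by 3 probes that differed among themselves. The brightest, A_52_P438082, measured 1.22, 1.63, 1.68 and 1.36 in KO samples 1 to 4 and 1.59, 1.14, 1.82 and 1.43 in WT samples 1 to 4. The groups overlapped, and the difference was -0.02 (95% interval -0.50 to 0.45, limma adjusted p = 0.9999). The second probe, A_52_P121675, gave 0.47, 1.00, 1.42 and 0.56 in KO samples and 0.52, 0.15, 1.43 and 0.67 in WT samples, a difference of 0.17 (95% interval -0.59 to 0.94). KO sample 2 was well above WT sample 2 by both probes, and the other pairs lay close together or lower in KO.

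The third and dimmest Cebpg probe, A_51_P521216, gave -1.97, -2.03, -1.49 and -1.60 in KO samples 1 to 4, against -0.92, -1.34, -1.24 and -1.30 in WT samples 1 to 4. Every KO sample lay below every WT sample, which held for 1.31% of the 27118 probes tested in that direction. The means were -1.77 ± 0.27 in KO samples and -1.20 ± 0.19 in WT samples (SD, n = 4 each). The difference of -0.57, or 0.67-fold, had an unadjusted limma p of 0.0202 and an adjusted p of 0.9999 over all probes. The exact permutation p was 0.0286, the smallest that 4 samples against 4 can give, for 1 of 7 C/EBP probes. Before scaling, the signals were 163 to 292 units in KO samples and 260 to 328 in WT samples and overlapped (exact permutation p = 0.0571). After quantile normalization and in the authors' deposited table the groups overlapped as well, with differences of -0.55 and -0.51 (exact permutation p = 0.0571 for each). They stayed apart with normexp on the median signal and with the median of bright probes as the scale, with differences of -0.56 and -0.57 (exact permutation p = 0.0286 for each).

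Within each array, the third probe minus the brightest averaged -3.24 ± 0.30 in KO samples and -2.69 ± 0.27 in WT samples (SD, n = 4 each). That contrast differed by -0.55 between genotypes (exact permutation p = 0.0571, 0.171 after Benjamini-Hochberg adjustment over the 3 probe pairs). The 3 Cebpg differences spanned 0.75 on the log2 scale. A span at least as wide was seen in 18.3% of the 851 named genes with 3 tested probes, whose median span was 0.36. The stretch of transcript that each probe reads was not looked up here.

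**Figure D2:**
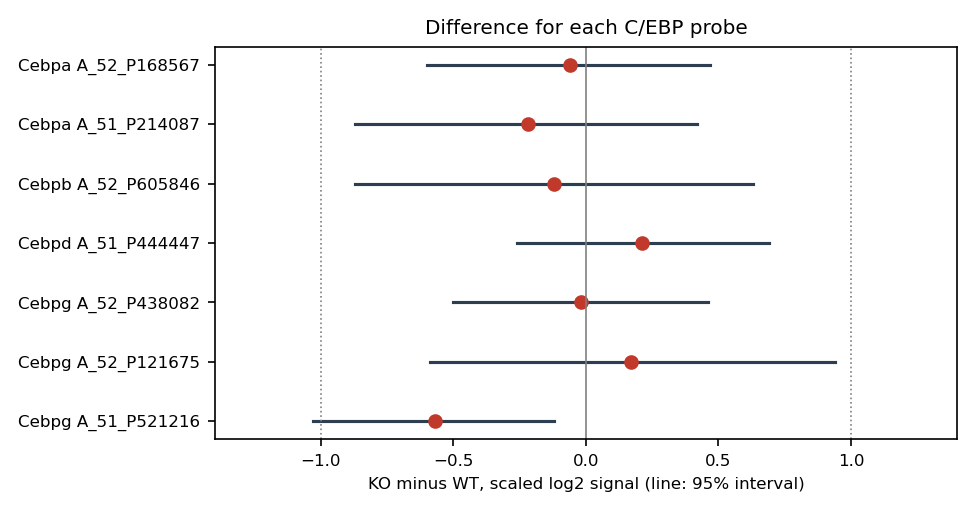
Difference of KO minus WT in scaled log2 signal for the 7 C/EBP probes, with 95% intervals from the limma fit over all probes. The dotted lines mark a 2-fold change. The interval of Cebpg A_51_P521216 (-1.03 to -0.12) leaves out 0 before adjustment for multiple tests, and the other 6 include it.

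Cebpa and Cebpb varied with the sample number far more than with genotype. The number took 95.1% of the sum of squares of Cebpa and 97.4% of that of Cebpb, and genotype took 1.4% and 2.0%. Without any effect the number would be expected to take 42.9% and genotype 14.3%, as the number has more levels. For the median gene the number took 66.3% and genotype 4.9%, and 7.95% of the genes had a number share as high as that of Cebpa. For Cebpd the number took 62.8% and genotype 19.8%, and for Cebpg, by its brightest probe, 49.2% and 0.3%. The range over the 8 samples was 0.70 for Cebpa, 1.09 for Cebpb, 0.86 for Cebpd and 0.68 for Cebpg on the log2 scale. Each slide carried both genotypes of 2 numbers, and the slide alone took 5.2% for Cebpa and 2.4% for Cebpb.

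Macrophage, epithelial and fibroblast markers varied with the sample number as well. The mean of 11 macrophage markers was 4.54, 4.08, 4.74 and 3.63 in KO samples 1 to 4, and 4.52, 4.30, 4.73 and 3.58 in WT samples 1 to 4. The mean of 11 epithelial markers, keratins among them, was 0.17, 1.36, -0.86 and 2.37 in KO samples and 0.00, 1.28, -0.88 and 1.85 in WT samples. Samples numbered 1 and 3, where Cebpa and Cebpb were high, thus had the higher macrophage and the lower epithelial means in both genotypes. The mean of 7 fibroblast markers was 1.08, 0.78, -0.44 and 2.37 in KO samples 1 to 4 and 0.65, 1.38, -0.59 and 1.69 in WT samples 1 to 4, lowest in number 3 and highest in number 4. In summed scaled signal the epithelial list ranged from 14.2 to 123 in KO samples and from 13.6 to 115 in WT samples, and the macrophage list from 236 to 461 in KO samples and from 227 to 450 in WT samples. These 11 epithelial markers were well above background on all 8 arrays, and the other one of the 12 listed, the milk protein gene Csn2, was too dim to be tested. Fewer cells of a type and less RNA per cell cannot be told apart in such samples, and the part of these cells in the Cebpa and Cebpb values was not tested.

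**Figure D3:**
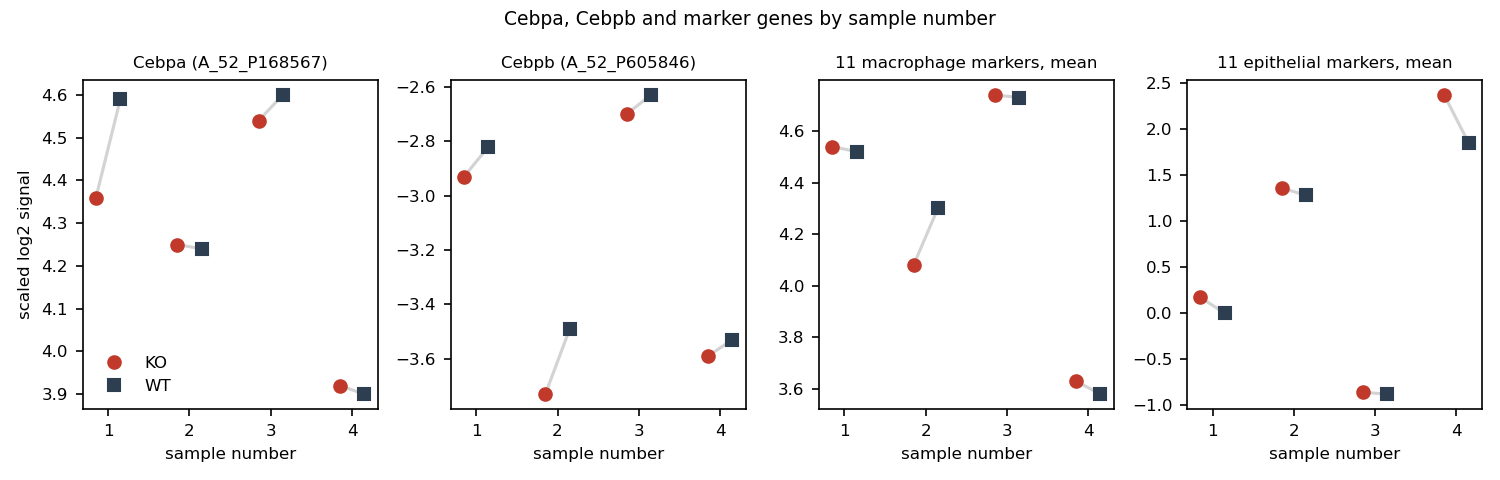
Scaled log2 signal of Cebpa and Cebpb and the mean of the macrophage and epithelial marker lists by sample number, with the KO sample (red circle) left of the WT sample (dark square) of the same number. The axes differ between panels. Same-numbered samples lie close together, and number 4 has the lowest Cebpa (3.92 in KO, 3.90 in WT) and the highest epithelial mean (2.37 in KO, 1.85 in WT).

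The genes whose pattern over the 8 arrays was most like that of each C/EBP gene were ranked by Pearson r over 11947 named genes well above background on every array. All points share arrays and scaling, so r is a description. For Cebpa these were Lpxn, which encodes the leukocyte adhesion adaptor leupaxin, at r = 0.991, Ndufb7, a subunit of respiratory complex I, at 0.991 and the calcium-binding protein gene Cib1 at 0.989, and 657 genes reached 0.9. For Cebpb they were Ints6l at 0.990, Mon2, of endosomal transport, at 0.987 and Magt1, a magnesium transporter, at 0.985, with 227 genes at 0.9 or more. Cebpg was most like Rhobtb1 (0.978), the RNA helicase gene Ddx19a (0.971) and Vps33a (0.964), of vesicle fusion. Cebpd stood more alone, with 8 genes at 0.9 or more. They were led by 1110038F14Rik (0.982), Klhl24 (0.974) and the histone gene H4f16 (0.934), each lowest in WT sample 2 like Cebpd itself. Among the C/EBP genes, Cebpa and Cebpb had r = 0.85 and Cebpa and Cebpd r = 0.03.

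Relatives and partners of the C/EBP factors showed no called change. Of 9 genes with a C/EBP-like zipper or name, Atf3 itself among them, 0 passed in either direction at an adjusted p under 0.05, 6 had a higher mean in KO samples and the median difference was 0.07, against -0.01 over all genes tested. At an unadjusted p under 0.05 there were 0 of 9. Ddit3, which encodes CHOP, a C/EBP relative that dimerises with the others, averaged 1.23 ± 0.34 in KO samples and 1.27 ± 0.33 in WT samples. Atf4, the stress factor that pairs with C/EBP gamma, averaged 2.28 ± 0.32 in KO samples and 2.38 ± 0.35 in WT samples (SD, n = 4 each). Nfil3 differed by 0.35 and Atf5 by 0.12. Of 12 lineage factors that act beside C/EBPs, 0 passed, with 7 higher in KO and a median of 0.01. Spi1, which encodes PU.1, followed the sample number like Cebpa, with 0.90, 0.90, 1.12 and -0.15 in KO samples 1 to 4 and 0.98, 0.38, 1.22 and -0.10 in WT samples 1 to 4. Klf4, of monocyte differentiation, differed by -0.22 (SE 0.18), the lipid-sensing receptor gene Pparg by 0.40 (SE 0.59) and the granulocyte factor gene Gfi1 by 0.91 (SE 0.56). Gata2, of progenitors and mast cells, averaged -3.51 ± 1.69 in KO samples and -2.51 ± 1.78 in WT samples (SD, n = 4 each), and its second probe differed by -0.25.

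Upstream regulators of the C/EBP factors did not pass either. Of 22 regulators 0 were called and 0 had an unadjusted limma p under 0.05, 7 were higher and 15 lower in KO samples, and the median was -0.09. Trib1, the pseudokinase through which C/EBP alpha is destroyed, averaged 3.97 ± 0.31 in KO samples and 3.84 ± 0.34 in WT samples (SD, n = 4 each). Creb1, which can drive Cebpb, differed by -0.61 by the probe that stands for it, with a 95% interval of -1.22 to 0.00, but by 0.42 and 0.11 by its other probes. Its relative Crem differed by 0.28, the cytokine gene Il6, which induces Cebpb and Cebpd, by 0.42 and Id1 by 0.22.

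Targets of the family were split in direction. Of 25 genes reported as C/EBP targets in macrophages 0 were called and 0 had an unadjusted limma p under 0.05, 15 were higher in KO and the median was 0.06. Arg1, the arginase gene served by C/EBP beta, measured 3.45, 2.46, 2.67 and 2.39 in KO samples 1 to 4, against 3.01, 2.12, 2.97 and 2.25 in WT samples 1 to 4. It was highest in sample 1 of each genotype and differed by 0.16 (95% interval -0.59 to 0.90). Saa3, an acute phase gene, had 2.01, 2.32, 2.68 and 2.74 in KO samples and 0.99, 0.49, 2.90 and 0.86 in WT samples. WT sample 3 was the highest of all 8, the other 3 WT samples were below every KO sample, and the difference of 1.12 did not pass (limma adjusted p = 0.9999, unadjusted 0.0606). Il13ra1, a receptor chain for IL-13, differed by 0.30 and the urokinase gene Plau by -0.59, neither of which passed.

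The other target lists gave the same picture by count. Of 15 genes of amino acid supply, glutathione and the stress response that ATF4 drives with partners, C/EBPs among them, 0 were called, 6 were higher and 9 lower in KO, and the median was -0.04. Sesn2 differed by -0.28, Chac1 by -0.54 and Shmt2 by 0.13, and Phgdh by -0.28 by one probe and 0.14 by each of its other 2. Of 17 granule genes that C/EBP epsilon drives in granulocyte precursors 15 were tested and 0 called, with 8 higher in KO and a median of 0.02. Prtn3 differed by 0.52, Cd177 by -0.72, Epx by -0.38 and Ngp by -0.95, the last with a standard error of 1.26. Neutrophil markers, which share Ngp, Ltf, Camp, Mmp8 and the calprotectin genes with that list, stood highest in samples numbered 1, with a mean of 1.35 in KO sample 1 and 1.23 in WT sample 1, against -2.05 to -0.50 in the other KO samples and -1.57 to -0.50 in the other WT samples. The part of these cells in the granule values was not tested.

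Of all the genes in these 7 C/EBP lists, 1 had an unadjusted limma p under 0.05, a level that 3.36% of all genes tested reached. It was in the adipocyte programme that C/EBP alpha, beta and delta serve in fat cells. Of 13 genes 10 were tested, 5 were higher and 5 lower in KO, and the median was 0.07. Adipoq, the adiponectin gene, was dim and measured -4.62, -4.38, -5.00 and -4.73 in KO samples 1 to 4, against -7.58, -6.81, -5.73 and -5.70 in WT samples 1 to 4. The groups did not overlap, which held for 2.14% of all genes tested, and Adipoq was named for its small p. The probe was well above background on 6 of 8 arrays, and WT samples 1 and 2 were the dimmest. The difference of 1.77 did not pass over all genes (limma adjusted p = 0.9999). The probe of Cfd, adipsin, was well above background on 5 of 8 arrays and measured -6.14, -8.01, -5.65 and -5.48 in KO samples 1 to 4, against -5.53, -2.96, -5.38 and -5.73 in WT samples 1 to 4. KO sample 2 was the lowest and WT sample 2 the highest, and the other samples lay close together. Plin1, which coats fat droplets, differed by -0.30 and Fabp4, which macrophages express too, by 0.39, and neither passed.

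**Figure D4:**
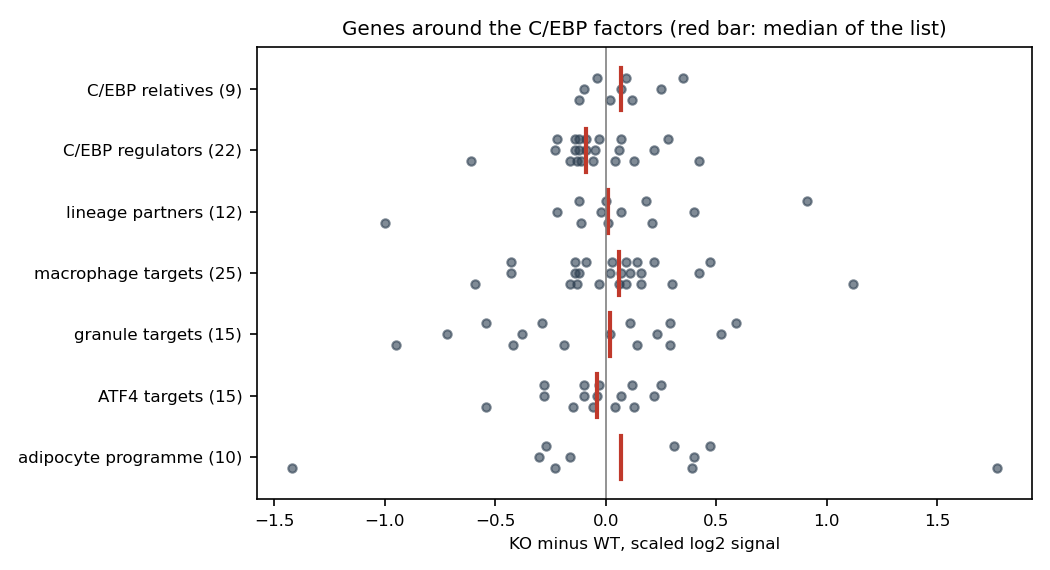
Difference of KO minus WT in scaled log2 signal for each tested gene of the 7 lists around the C/EBP factors, with the number of genes tested in brackets and the list median as a red bar. The medians lie between -0.09 and 0.07, and no gene was called.

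Markers of several other cell types lay mostly to one side between genotypes, though none was called. Of 11 T and NK markers 10 were higher in KO samples (median 0.52), and their summed scaled signal ranged from 13.4 to 44.1 in KO samples and from 9.11 to 24.5 in WT samples. In all 4 same-numbered pairs that sum was higher in KO. Among these markers Klrb1c differed by 1.31 by the probe that stands for it and by -0.26 by a second probe. All 7 endothelial markers tested were lower in KO samples (median -0.96), with sums of 1.68 to 3.88 in KO samples and 1.72 to 7.50 in WT samples. That sum was lower in KO in all 4 pairs, and of these markers Vwf, with a difference of -0.63, had an unadjusted limma p of 0.029 (adjusted 0.9999). Tie1 was well above background on 7 of 8 arrays and Sox17, at -2.31, on 4. The other Sox17 probes, too dim to be kept, differed by -0.11 and -0.54. Of 7 eosinophil and mast cell markers 6 were higher in KO samples (median 0.45), and of 8 monocyte markers 6 (median 0.29). The eosinophil and mast cell sums were 12.6, 5.34, 0.935 and 2.91 in KO samples 1 to 4. In WT samples 1 to 4 they were 14.5, 2.21, 1.09 and 1.76. That sum was thus lower in KO in pairs 1 and 3, and the monocyte sum was higher in KO in all 4 pairs. Fibroblast markers were higher in KO samples for 6 of 7 (median 0.09) and epithelial markers for 8 of 11 (median 0.07). Macrophage markers were lower in KO samples for 8 of 11 (median -0.04) and neutrophil markers for 6 of 9 (median -0.19). Over all genes tested 51.5% were lower in KO samples. Markers of a list can vary together, so these counts are not of separate observations. The part of these cells in the Cebpd difference and in that of the third Cebpg probe was not tested.

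The direction of the small differences depended on the setting for 3 of the 4 genes. The Cebpa, Cebpb and Cebpg differences took both signs over the other ways of processing and the left-out samples, and Cebpd stayed above 0, between 0.07 and 0.31, in all of them. None of these values passed in any setting tried.

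**Figure D5:**
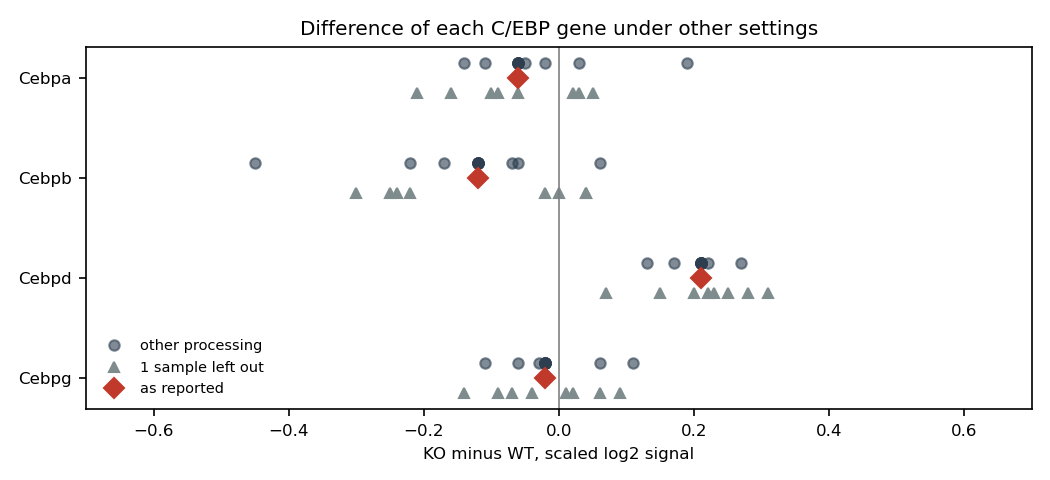
Difference of KO minus WT in scaled log2 signal of the 4 C/EBP genes as reported (red diamond), under 12 other ways of processing (dark circles) and with 1 sample left out (grey triangles). Points of Cebpd stay right of 0, and those of the other genes lie on both sides.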

How the data were processed

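RNA of 8 sorted macrophage samples, 250 ng each per the labels' protocols, was labelled with Cy3 and hybridised to 1-colour Agilent arrays. Per the file headers the authors extracted spot intensity values with Agilent Feature Extraction 10.7.1.1, which corrects background and detrends within an array, and version 10.5 is given in the submitters' processing notes. The authors' deposited table of processed intensity values, of unstated scale and method, had column medians of 92.0 to 94.0 and 1 common maximum, and served as an alternative. Its values correlated at 0.9986 with quantile-normalized median signals and at 0.9491 with quantile-normalized processed signals. It is therefore not an independent check beside the quantile setting. The deposited spot marks of the scanner software (signal well above local background, saturation, outliers; kind other) served as filters.

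Control and outlier spots were left out, log2 processed signals of a probe averaged, and each array's 75th percentile subtracted. Probes well above background on at least 4 arrays were kept (27118 of 41174), and the brightest stood for its gene. Accessions were named through RefSeq genes of GRCm38.p6 (25097 probes named, 16077 not). Coordinates of the files' mm9 build were not used. Genotypes were compared with limma 3.58.1 in R 4.3.3, two-sided, Benjamini-Hochberg adjusted over all genes or probes. On simulated data for KO against WT over 20851 genes, that test called 20% of 2-fold and 48% of 4-fold changes. Values were drawn independently with each gene's own spread, so no sample number effect was shared, and the rates average over genes of every spread. The SDs of Cebpa, Cebpd and Cebpg by their brightest probes were 0.16 to 0.33, against a median of 0.47 over all genes.

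Members, lists, tests and alternatives were chosen with earlier results of these data known. The text names all members, up to 4 genes per C/EBP list by smallest p, Atf3, Ddit3, Atf4, Spi1, Trib1, Arg1, Adgre1 and Ptprc, and the 3 genes most like each member. Deviations from group means correlated at 0.30, 0.14, 0.70 and 0.51 between KO and WT samples numbered 1 to 4, every one above 0.1. Same-numbered samples were therefore also compared as pairs, though what they share is not stated. The reported limma fits and exact permutation tests did not use the pairing, which entered a fit only as the replicate block. The pairing of numbers 2 and 4 is less clear: KO 4 with WT 2 gave 0.15 and KO 2 with WT 4 gave 0.14. Alternatives were normexp background correction of the median signal, quantile normalization, another scale, other filters, the deposited table, slide and replicate blocks, each slide, another variance model, array weights, each probe and each sample left out.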

Additional observations from a re-analysis of the deposited data

How the results depend on the processing

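No C/EBP gene passed in any alternative, and the count of called genes stayed at 0, with 700 genes at an unadjusted limma p under 0.05, except that leaving out samples gave 0 to 1 (without KO sample 1 the complement gene Hc, named after its values were seen, had limma adjusted p = 0.0492). That unadjusted count was 407 with normexp on the median signal, 1163 without a filter, 221 within slide 2, 447 without KO sample 2 and 1580 with the replicate block. The block left the differences of Cebpa, Cebpb, Cebpd and Cebpg at -0.06, -0.12, 0.21 and -0.02 and changed no call. Cebpa turned to 0.19 with normexp and 0.03 in the deposited table, Cebpb to 0.06 in the deposited table, and Cebpg to 0.11 with normexp, 0.06 within slide 1 and 0.17 by its second probe. The normexp setting changed the input signal together with the background correction, and their shares were not separated. The median of all genes was then -0.14, and relative to it Cebpa, Cebpb, Cebpd and Cebpg lay at 0.33, -0.31, 0.41 and 0.25. With 1 sample left out the differences ranged from -0.21 to 0.05 for Cebpa, -0.30 to 0.04 for Cebpb, 0.07 to 0.31 for Cebpd and -0.14 to 0.09 for Cebpg. The third Cebpg probe stayed between -0.67 and -0.48 in those fits. The cause was not tested. Cebpe gave no value. The single Cebpb probe, at 3.0 to 6.2 times background, limits what can be said of that gene. With 4 samples a group few 2-fold changes were called in the simulation, averaged over genes of every spread.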
